A study of Mus musculus with 24 samples.

Results

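The 10 genes described here lie within 0.927 Mb at the distal end of mouse chromosome 7 (mm9): H19, Igf2, Ascl2, Cd81, Tssc4, Kcnq1, Kcnq1ot1, Cdkn1c, Slc22a18 and Phlda2. They were chosen by symbol and not by a cut on their values, though with earlier results of these data known. All 10 were found among the 24016 genes of the expression table. The samples were mouse embryonic stem cells of 1 female line, 16.7 Tsix +/TST. One set of cultures carried a deletion of the H3K9 methyltransferase G9a (KO) and the other was the parental line (WT), so that both carried the Tsix +/TST genotype. Each was sampled undifferentiated (day 0) and at day 10, after LIF withdrawal with 4 days in suspension and 6 days on gelatin. Whether the KO line was 1 clone is not given in the labels. Total RNA depleted of ribosomal RNA was sequenced in 3 libraries in each of 4 groups (KO day 0, WT day 0, KO day 10 and WT day 10). ChIP of H3K9ac, an acetylated histone found at transcribed starts, was done in 1 sample of each group.

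Imprinted genes are transcribed from the maternal or the paternal chromosome only, as set by DNA methylation laid down in the germ line at imprinting control regions. The distal cluster of chromosome 7 has a pair of such regions. At one, the factor CTCF binds the unmethylated maternal copy and keeps shared enhancers on H19, while methylation of the paternal copy gives those enhancers to Igf2. The other lies in an intron of Kcnq1 and is the promoter of Kcnq1ot1, a long antisense RNA of the paternal chromosome that silences neighbours such as Cdkn1c, Phlda2 and Slc22a18 in cis. In mouse placenta this silencing also reaches Ascl2, Cd81 and Tssc4, and G9a is known to take part in it there.

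H19 and Igf2 each carry a microRNA gene inside their transcription unit, and these are shown because H19 and Igf2 are the genes that moved most with differentiation. The mature sequences are from RefSeq (GRCm38.p6), all on the minus strand, written 5′ to 3′ with the seed (bases 2 to 8) in capitals.
miR-675-5p of H19, chr7:142577112-142577133: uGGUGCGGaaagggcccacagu
miR-675-3p of H19, chr7:142577078-142577099: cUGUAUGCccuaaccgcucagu
miR-483-5p of Igf2, chr7:142654968-142654989: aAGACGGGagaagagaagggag
miR-483-3p of Igf2, chr7:142654932-142654952: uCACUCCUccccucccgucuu
The 4 seeds differ from each other.

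Promoter sequences are shown for Igf2 and Phlda2, which rose with differentiation, and for Kcnq1ot1, Cd81 and Tssc4, which had an H3K9ac peak in all 4 ChIP samples. RefSeq (GRCm38.p6) gave promoters for 7 of the 10 genes, 10 promoters in all, each of 250 bases before and 50 after the start. Capitals mark matches, on either strand, to TATAAA (the TATA box), CCAAT (the CCAAT box), GGGCGG (the GC box) or TGCCGC (the hexamer bound by Zfp57). Matches of different motifs were counted separately whether or not they overlapped.
Igf2, minus strand, chr7:142657447-142657746: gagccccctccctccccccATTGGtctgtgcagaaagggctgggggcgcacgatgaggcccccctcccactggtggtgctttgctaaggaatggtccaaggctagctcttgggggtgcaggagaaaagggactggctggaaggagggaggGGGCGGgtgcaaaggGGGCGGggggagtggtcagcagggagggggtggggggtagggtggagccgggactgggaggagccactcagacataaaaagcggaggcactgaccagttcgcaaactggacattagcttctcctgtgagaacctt
Phlda2, minus strand, chr7:143502475-143502774: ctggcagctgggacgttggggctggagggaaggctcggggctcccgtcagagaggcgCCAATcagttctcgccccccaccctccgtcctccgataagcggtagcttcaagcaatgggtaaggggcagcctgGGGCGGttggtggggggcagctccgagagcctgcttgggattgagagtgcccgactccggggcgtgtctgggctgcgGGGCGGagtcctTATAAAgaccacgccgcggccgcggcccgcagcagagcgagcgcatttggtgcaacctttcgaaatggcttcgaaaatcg
Kcnq1ot1, minus strand, chr7:143296498-143296797: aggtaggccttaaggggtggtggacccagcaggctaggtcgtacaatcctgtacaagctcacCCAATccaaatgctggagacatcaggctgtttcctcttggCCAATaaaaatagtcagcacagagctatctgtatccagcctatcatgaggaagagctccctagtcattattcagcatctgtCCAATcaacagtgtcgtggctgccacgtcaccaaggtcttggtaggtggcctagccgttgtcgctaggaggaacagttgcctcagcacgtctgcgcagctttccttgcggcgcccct
Cd81, plus strand, chr7:143052500-143052799: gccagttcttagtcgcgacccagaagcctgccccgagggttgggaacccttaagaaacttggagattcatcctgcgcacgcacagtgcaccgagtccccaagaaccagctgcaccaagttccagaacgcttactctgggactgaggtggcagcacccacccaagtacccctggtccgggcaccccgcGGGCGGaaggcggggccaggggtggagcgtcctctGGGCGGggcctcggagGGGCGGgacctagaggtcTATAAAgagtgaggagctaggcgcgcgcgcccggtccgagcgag
Tssc4, plus strand, chr7:143069118-143069417: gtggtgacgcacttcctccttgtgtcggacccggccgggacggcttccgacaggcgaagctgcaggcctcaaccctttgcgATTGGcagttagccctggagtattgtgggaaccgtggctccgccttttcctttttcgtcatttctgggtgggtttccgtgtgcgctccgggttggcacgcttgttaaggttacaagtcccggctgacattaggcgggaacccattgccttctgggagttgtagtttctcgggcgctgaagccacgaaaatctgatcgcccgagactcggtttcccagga
The TATA box was in 2 of the 10 promoters (those of Phlda2 and Cd81), against 13.6% of all 32851 mouse promoters in the table. The CCAAT box was in 5 of 10, against 37.4%, and the Kcnq1ot1 promoter held 3 copies on the given strand. The GC box was in 5 of 10, against 35.7%, and the Cd81 promoter held 3 copies. The Zfp57 hexamer was in 1 of 10 (another Igf2 promoter, not shown), against 11.6%. The Phlda2 promoter held 26 CpG sites, those of Cd81 and Tssc4 23 each, that of Kcnq1ot1 9 and the Igf2 promoter shown, the first by coordinate of 4 listed for Igf2, 7, where the median of all promoters was 7 and the upper quartile 20. The other 3 Igf2 promoters held 24, 14 and 2 CpG sites. The Igf2 start used below for the gene and its peaks lies nearest the promoter with 14 CpG sites, which holds the Zfp57 hexamer, and not the one shown. These matches are letters in a window and were not tested as binding sites.

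The libraries differed in ways the groups do not explain. KO replicates 2 and 3 and WT replicate 3 of day 0 held 21087157 to 30527844 reads and the other 9 libraries 2081129 to 4220140. So 1 read was worth 0.285 to 4.18 scaled reads. Rn45s, the ribosomal RNA precursor gene, took 0.115 to 0.129% of reads in these deep libraries. In the other 9, which include all day 10 libraries, it took 14.8 to 25.1%. Depth and the Rn45s share therefore cannot be told apart, and the totals made equal by the scaling include Rn45s. KO replicate 1 of day 0 and WT replicate 3 of day 10 had 1072 and 1093 CPM in olfactory and vomeronasal receptor genes, against 31.1 to 377 CPM elsewhere. KO replicate 1 and WT replicate 1 of day 0 had 794 and 1611 CPM in 16 fibroblast genes, against 226 to 357 CPM in the other 4 day 0 libraries. KO replicates 2 and 3 of day 0 correlated at 0.993 on the log2 scale, against 0.816 to 0.963 for the other pairs within a group. Each RNA library has its own donor number in the labels, which do not say whether cultures were separate, so p-values measure only the spread between these samples. The stem cell label held at day 0, where 10 pluripotency genes summed to 4391 to 4502 CPM in KO and 4082 to 5382 CPM in WT. At day 10 the sums were 1494 to 2134 CPM in KO and 453 to 1040 CPM in WT. Ehmt2, the gene of G9a, averaged 458 ± 92.1 scaled reads in KO against 1155 ± 199 in WT at day 0 and 629 ± 129 in KO against 1125 ± 353 in WT at day 10 (SD, n = 3 each). The deleted part of Ehmt2 is not given, and reads were counted over the whole gene.

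The question of the time comparison is which genes of the cluster change as each line differentiates. H19 and Igf2 rose in both lines and Phlda2 rose in KO, while none of the 10 passed the test as lower. With limma over 20624 genes (Benjamini-Hochberg adjusted p at most 0.05), 3 of 10 genes were called higher at day 10 in KO, where 2.43% of all genes tested were, and 2 of 10 in WT, where 2.02% were. In KO 6.46% of all genes were called lower and in WT 2.4%. At an unadjusted p of 0.05 there were 6 of 10 in KO (32.4% of all genes) and 3 of 10 in WT (16.8%). With edgeR 3 of 10 were called in KO and 3 in WT (7.03% of its genes in each), and with DESeq2 5 in KO (19.4%) and 3 in WT (11.7%). The median log2 change of the 10 genes was 1.03 in KO and 0.59 in WT, against -0.68 in KO and -0.20 in WT for all genes tested. The calls of the 10 genes did not depend on the scaling (RLE or TMM), although RLE scaling moved the median of all genes to -0.41 in KO and -0.01 in WT. It also turned the split of all calls in KO to 785 higher and 700 lower, against 502 and 1332 as scaled by the authors, and in WT to 589 and 399, against 417 and 494.

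H19 (NR_001592; chromosome 7, 149761437 to 149764051, minus strand, mm9) makes a maternally expressed long noncoding RNA abundant in the embryo. All values below are scaled reads: each library's reads times the authors' factor, which gives the libraries equal totals. In KO cells H19 had 21929, 29426 and 30284 scaled reads at day 10 against 128, 368 and 341 at day 0. In WT cells it had 37049, 22513 and 14101 at day 10 against 230, 251 and 124 at day 0. The days do not overlap in either line, and the WT day 10 libraries spread more widely than the KO ones. The log2 change was 6.73 in KO (SE 0.44, limma adjusted p = 3.19e-06) and 6.87 in WT (SE 0.44, adjusted p = 2.42e-06), and the difference between the changes was -0.14 (SE 0.62, adjusted p = 0.959). Exact permutation of libraries gave p = 0.1 in each line, the smallest that 3 against 3 allows. At day 10 H19 took 0.252 to 0.349% of all reads (Rn45s included) in KO libraries and 0.162 to 0.426% in WT libraries. Against the shallow day 0 libraries alone the H19 change was 7.71 in KO and 6.56 in WT, and against the deep ones 6.25 in KO and 7.50 in WT. H19 ranked 4 to 7 among all genes by scaled reads at day 10 in both lines, and 5984 to 9897 at day 0.

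miR-675 is cut from H19, and reads over its hairpin gene followed those of the host. The Mir675 gene had 1226, 1279 and 1106 scaled reads in KO day 10 libraries, against 6.23, 2.28 and 3.71 in KO day 0 libraries. It had 1973, 1128 and 535 in WT day 10 libraries, against 14.2, 0 and 1.42 in WT day 0 libraries. Total RNA reads over this stretch cannot be told apart from those of H19 RNA, and the mature microRNAs whose seeds are given above were not measured.

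Igf2 (NM_001122736; chromosome 7, 149836673 to 149846940, minus strand) encodes insulin-like growth factor 2, the paternally expressed growth factor of the fetus. In KO cells Igf2 had 647, 608 and 731 scaled reads at day 10 against 21.8, 14.98 and 19.4 at day 0. In WT cells it had 1439, 684 and 1089 at day 10 against 28.3, 71.0 and 33.6 at day 0. The days were far apart in both lines. The log2 change was 5.08 in KO (SE 0.40, limma adjusted p = 3.09e-05) and 4.62 in WT (SE 0.40, adjusted p = 4.04e-05), with a difference of 0.47 (SE 0.57, adjusted p = 0.836). Against shallow day 0 libraries the Igf2 change was 4.86 in KO and 4.48 in WT, and against deep ones 5.19 in KO and 4.89 in WT. The Mir483 gene inside Igf2 held 1 read in the 12 libraries together, and Igf2os, an antisense gene over the Igf2 start, held 78 reads against 2076 of Igf2. Strandedness is not given in the sources used here, so reads of Igf2 and Igf2os cannot be told apart where they overlap.

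**Figure D1:**
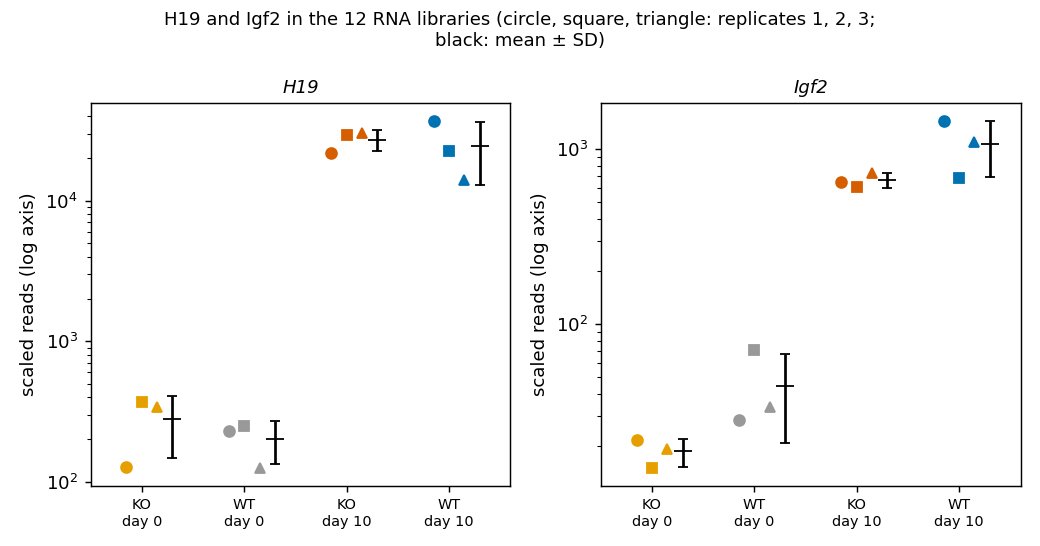
H19 and Igf2 in each RNA library, as scaled reads on a log axis, with groups KO day 0, WT day 0, KO day 10 and WT day 10 from left to right. Coloured symbols are libraries and black marks the mean ± SD (n = 3). H19 lies between 124 and 368 at day 0 and between 14101 and 37049 at day 10, and Igf2 between 14.98 and 71.0 and between 608 and 1439.

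The ratio of H19 to Igf2 scaled reads was set side by side after the values of both genes had been seen. At day 10 it was 33.9, 48.4 and 41.4 in KO libraries, against 25.7, 32.9 and 12.9 in WT libraries. The groups do not overlap, and the KO ratio was 1.84-fold the WT ratio (geometric means, exact permutation p = 0.1, the smallest reachable). Without WT replicate 3, one of the libraries with reads in olfactory receptor genes, the fold was 1.40. At day 0 the ratio was 5.86, 24.5 and 17.6 in KO and 8.13, 3.53 and 3.70 in WT, where the groups overlap (exact permutation p = 0.2). Ratios from 2 genes of different length are not ratios of RNA molecules.

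Some markers of other cell types also changed between the days. Over all genes tested, limma called 2.43% higher and 6.46% lower in KO, and 2.02% higher and 2.4% lower in WT. Of 12 trophoblast genes 6 were called higher at day 10 in each line, and their summed level was 1219 to 1547 CPM in KO day 10 against 118 to 143 CPM in KO day 0. In WT it was 709 to 2076 CPM at day 10 against 109 to 142 CPM at day 0. By replicate the trophoblast level was 1219, 1547 and 1387 CPM in KO day 10 and 2076, 1475 and 709 CPM in WT day 10. The WT order is that of H19 and the KO order is not. These sums rest largely on the keratin genes Krt8 and Krt18, the highest of the 12 in each day 10 library. Tfap2c, also listed, had 476 to 526 scaled reads in KO day 10 against 514 to 893 in KO day 0. In WT it had 198 to 686 at day 10 against 509 to 880 at day 0. Tpbpa and Prl3d1 had 0 in the KO day 10 libraries. Of 13 mesoderm and muscle genes 4 were called higher in KO and 2 in WT, with 340 to 743 CPM in KO day 10 against 39.3 to 84.0 CPM in KO day 0, and 177 to 209 CPM in WT day 10 against 33.9 to 57.6 CPM in WT day 0. Extraembryonic endoderm genes, 12 in number, stood at 103 to 171 CPM in KO day 10 against 58.1 to 171 CPM in KO day 0, and at 87.3 to 274 CPM in WT day 10 against 38.8 to 72.4 CPM in WT day 0, with 1 called higher in each line. Fibroblast genes were at 756 to 1819 CPM in KO day 10 against 253 to 794 CPM in KO day 0, and at 434 to 1271 CPM in WT day 10 against 226 to 1611 CPM in WT day 0. Of the 16 fibroblast genes 2 were called higher and 1 lower in KO, and 0 higher and 1 lower in WT. Their part in the changes of H19 and Igf2 was not tested, and in these bulk samples more cells of a type and more RNA per cell cannot be told apart.

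The genes whose levels over the 12 libraries were most like those of H19 (Pearson correlation of log2 values, 12405 genes with a mean of at least 50 scaled reads) were Tpm1 (0.986), Zyx (0.984), Irs2 (0.981), Cnn2 (0.978) and Krt8 (0.976). Tpm1, Zyx and Cnn2 encode proteins of actin filaments and adhesions, Irs2 an adaptor of the insulin and IGF receptors and Krt8 a keratin. For Igf2 they were Gprc5c (0.990), Pard6b (0.982), Krt8 (0.979), T (0.977), the mesoderm factor Brachyury, and Wnt4 (0.975), a Wnt ligand. Krt8 was in both sets, with 2400, 3642 and 3484 scaled reads in KO day 10 against 15.6, 19.9 and 16.1 in KO day 0, and 4354, 3239 and 1589 in WT day 10 against 46.0, 50.1 and 46.4 in WT day 0. The points share their libraries and fall into day 0 and day 10, so these correlations are a description of genes that were high at day 10.

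Among the genes silenced in cis by Kcnq1ot1, Phlda2 (NM_009434; 150687453 to 150688429, minus strand) encodes a small protein that restrains growth of the placenta. In KO it had 135, 162 and 129 scaled reads at day 10 against 21.8, 17.6 and 16.5 at day 0, and in WT 77.2, 185 and 103 at day 10 against 42.4, 33.4 and 48.1 at day 0. The days do not overlap in either line. The log2 change was 2.87 in KO (SE 0.45, limma adjusted p = 0.00372) and passed, and 1.46 in WT (SE 0.45, adjusted p = 0.0939), which did not. The difference between the changes was 1.41 (SE 0.64, unadjusted p = 0.0449, adjusted p = 0.569), so a difference between the lines was not shown. Against shallow day 0 libraries the Phlda2 change was 2.64 in KO and 1.57 in WT, and against deep ones 2.98 in KO and 1.23 in WT. With edgeR and DESeq2 on recovered reads Phlda2 passed in WT too (adjusted p = 0.0305 and 0.000999).

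Cdkn1c (NM_009876; 150644244 to 150646955, minus strand) encodes p57, an inhibitor of cyclin-dependent kinases. In KO it had 143, 107 and 108 scaled reads at day 10 against 12.4, 41.4 and 56.9 at day 0, with no overlap, and a log2 change of 1.89 (SE 0.72, limma adjusted p = 0.0964). In WT it had 105, 59.7 and 60.4 at day 10 against 10.6, 91.9 and 41.6 at day 0, and the days overlap (1.04, SE 0.72, adjusted p = 0.531). Neither change passed with limma, and DESeq2 called the KO change (adjusted p = 0.0166). None of 6 other inhibitors of cyclin-dependent kinases was called in either line, with limma or at an unadjusted p of 0.05. Slc22a18 (NM_008767; 150659660 to 150685237, plus strand), a membrane transporter gene, was the least abundant by reads. It had 7.93, 0 and 2.70 scaled reads in KO day 10, from 3 reads in all, against 52.9, 8.14 and 11.5 in KO day 0, and 12.4, 4.12 and 11.5 in WT day 10 against 17.7, 96.0 and 31.9 in WT day 0. Its log2 changes of -2.52 in KO and -2.04 in WT (SE 1.04 each) did not pass.

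Kcnq1ot1 (NR_001461; 150399016 to 150482452, minus strand) showed no change with differentiation beyond its spread in either line. It had 1138, 1659 and 1815 scaled reads in KO day 10 against 2528, 952 and 977 in KO day 0, and 1041, 1966 and 2903 in WT day 10 against 3035, 585 and 560 in WT day 0. The first replicate of each day 0 group, the libraries with fibroblast reads, stood far above the other 2. Without both of them the WT change was 1.66 and passed (limma adjusted p = 0.0123), against 0.86 with all libraries (SE 0.59, adjusted p = 0.526). In KO the change was 0.18 (SE 0.59, adjusted p = 0.845).

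Kcnq1 (NM_008434; 150293159 to 150612947, plus strand), a potassium channel subunit, spans 319.788 kb and holds all of Kcnq1ot1 within it on the other strand. Kcnq1ot1 had more reads than Kcnq1 in all 12 libraries (12938 against 1118 in sum), so most of its reads were not also counted to Kcnq1. Strandedness is not given, so how many Kcnq1 reads came from Kcnq1ot1 RNA cannot be told. Kcnq1 had 27.8, 35.6 and 13.5 scaled reads in KO day 10, from only 7, 13 and 5 reads, against 529, 81.4 and 78.3 in KO day 0. In WT it had 64.8, 74.1 and 492 at day 10 against 177, 142 and 48.7 at day 0. Its highest values, 529 and 492, were in the libraries with most reads in olfactory and vomeronasal receptor genes. The KO change was -2.61 (SE 0.86, limma adjusted p = 0.0673) and did not pass. Without those libraries it was -1.70 and passed (adjusted p = 0.045), and it also passed with DESeq2, with a term for depth and with only the compared groups fitted. It did not pass with edgeR (adjusted p = 0.085), with the replicate block (limma adjusted p = 0.0828) or without the first replicates of day 0 (-1.70, adjusted p = 0.155). The WT change was 0.32 (SE 0.86, adjusted p = 0.913) and -0.62 without them.

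Of the genes imprinted in placenta, Ascl2 (NM_008554; 150152727 to 150155169, minus strand), a transcription factor that trophoblast needs, had 55.5, 46.6 and 40.5 scaled reads in KO day 10 against 18.7, 17.9 and 12.4 in KO day 0. In WT it had 64.8, 22.6 and 14.4 at day 10 against 17.7, 100.2 and 23.9 at day 0. The KO days do not overlap and the WT days do, and neither change passed (1.50 in KO with limma adjusted p = 0.171 and -0.33 in WT with adjusted p = 0.89, SE 0.74 each). Cd81 (NM_133655; 150238655 to 150253835, plus strand), a tetraspanin of the cell surface, had 1388 to 3023 scaled reads over the 12 libraries. Its log2 change was 0.57 in KO and -0.19 in WT (SE 0.30 each) and did not pass. Tssc4 (NM_020285; 150255273 to 150256992, plus strand), whose human protein helps assemble the U5 spliceosome particle, had 70.1 to 158 scaled reads over the 12 libraries, with changes of -0.62 in KO and -0.06 in WT (SE 0.40 each) that did not pass.

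**Figure D2:**
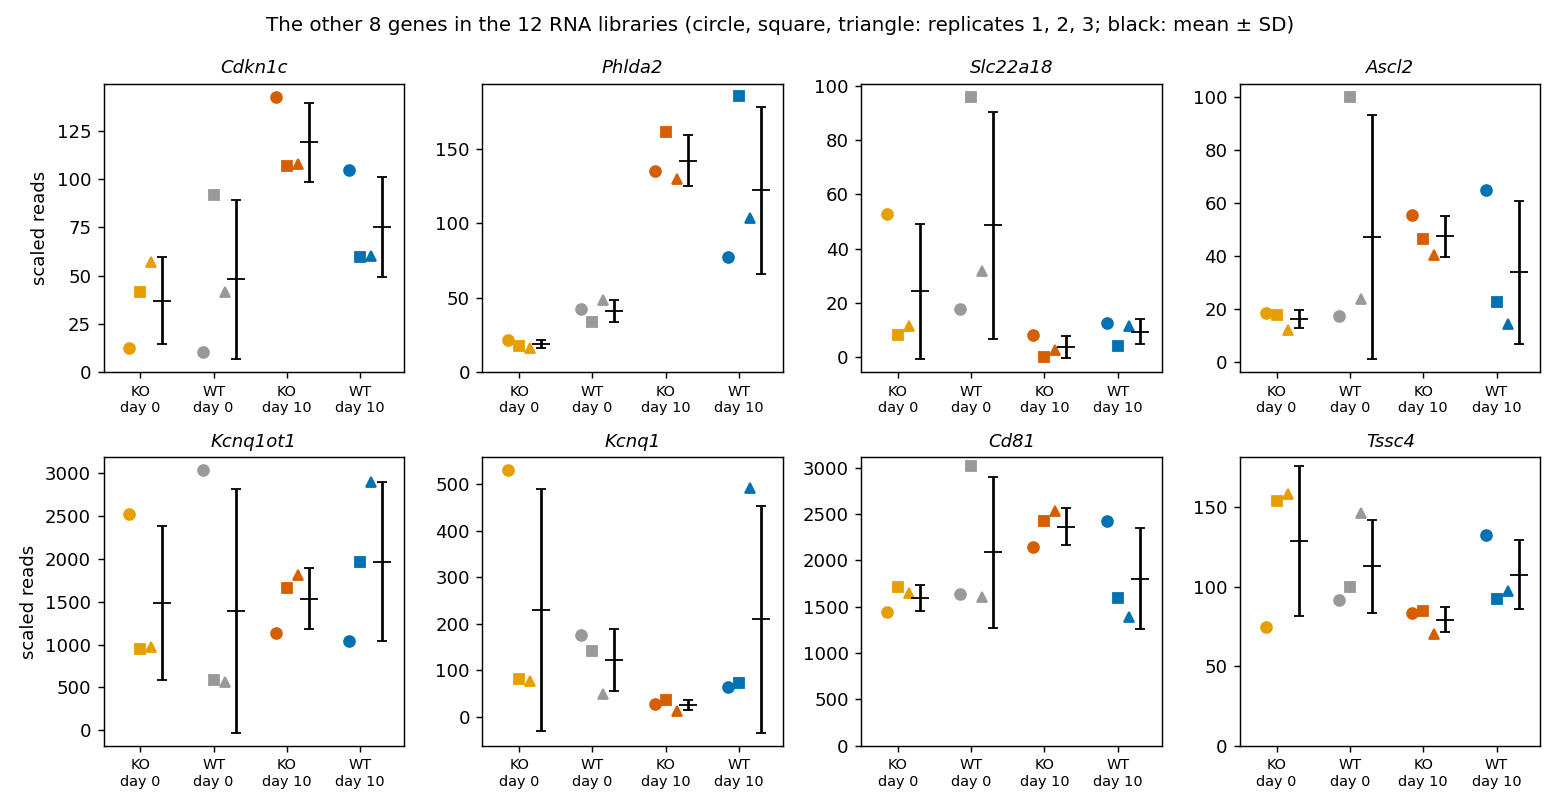
The other 8 genes in each RNA library, in scaled reads, with KO left of WT at each day. Symbols are libraries (circle, square and triangle for replicates 1, 2 and 3) and black marks the mean ± SD (n = 3). Phlda2 lies between 16.5 and 48.1 at day 0 and between 77.2 and 185 at day 10, and Kcnq1 is near 500 only in KO replicate 1 of day 0 (529) and WT replicate 3 of day 10 (492).

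Counted by groups that do not overlap, 6 of 10 genes were higher at day 10 in KO (8.93% of all genes tested) and 2 lower (36.5% of all genes). In WT 3 were higher (6.63%) and 1 was lower (11.8%). Cd81 and Slc22a18 in KO were separated by small gaps: the lowest Cd81 value at day 10 was 2142 against a highest of 1709 at day 0, and the highest Slc22a18 value at day 10 was 7.93 against a lowest of 8.14 at day 0.

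Per kb of gene, the levels at day 10 spanned several orders of magnitude. H19 was at 10410 ± 1758 scaled reads per kb in KO and 9393 ± 4441 in WT (SD, n = 3 each, as below). Cd81 followed in KO at 156 ± 13.2 with Phlda2 at 145 ± 17.6, and in WT Phlda2 at 125 ± 57.8, Cd81 at 119 ± 36.2 and Igf2 at 104 ± 36.8, levels that do not differ beyond their spread. Igf2 was at 64.5 ± 6.12 per kb in KO, above Tssc4 at 46.2 ± 4.72 and Cdkn1c at 44.0 ± 7.56, which overlap each other. In WT Tssc4 was at 62.7 ± 12.7 and Cdkn1c at 27.7 ± 9.57. Ascl2 and Kcnq1ot1 followed at 19.5 ± 3.11 and 18.4 ± 4.25 in KO and at 13.9 ± 11.1 and 23.6 ± 11.2 in WT. Slc22a18 and Kcnq1 were lowest, at 0.139 ± 0.158 and 0.0801 ± 0.0351 in KO and at 0.364 ± 0.177 and 0.657 ± 0.762 in WT. At day 0 H19 and Cd81 were highest, at 107 ± 50.3 and 105 ± 9.33 in KO and at 77.1 ± 25.9 and 137 ± 53.4 in WT, and Igf2 was among the lowest, at 1.82 ± 0.336 in KO and 4.31 ± 2.27 in WT. The length given by the authors is the genomic span, so genes with long introns are low on this scale.

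The comparison of KO with WT asks what the loss of G9a does to these genes. None of the 10 was called at either day with limma, edgeR or DESeq2. Ehmt2, the deleted gene, was not called with limma either. Its log2 difference was -1.34 at day 0 (limma adjusted p = 0.993) and -0.80 at day 10 (adjusted p = 0.323). A gene not called here is therefore not shown to be unchanged. With limma 2 of 10 genes were under an unadjusted p of 0.05 at day 0, where 3.82% of all genes were, and 1 of 10 at day 10, where 11.9% were. Over all genes limma and edgeR called 0 at either day, and DESeq2 called 15 at day 0 (0.0664%) and 558 at day 10 (3.4%). The median log2 difference of the 10 genes was -0.24 at day 0 and -0.01 at day 10, against 0.17 and -0.26 for all genes tested.

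At day 0 Igf2 and Phlda2 were the genes with groups that do not overlap, both lower in KO, where 4.98% of all genes were lower without overlap and 5.5% higher. Igf2 averaged 18.7 ± 3.45 scaled reads in KO and 44.3 ± 23.3 in WT (SD, n = 3 each), a log2 difference of -1.10 (SE 0.40, unadjusted p = 0.0165, limma adjusted p = 0.993). Between the shallow libraries alone (1 KO, 2 WT) the Igf2 difference was -1.01 and between the deep ones (2 KO, 1 WT) -0.94. Phlda2 averaged 18.6 ± 2.80 in KO and 41.3 ± 7.41 in WT (-1.10, SE 0.45, unadjusted p = 0.0287, limma adjusted p = 0.993), with -0.76 between shallow and -1.45 between deep libraries. H19 averaged 279 ± 131 in KO and 202 ± 67.7 in WT, and its difference of 0.38 (SE 0.44) was -0.91 between shallow and 1.50 between deep libraries. So the sign for H19 at day 0 did not hold within depth.

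At day 10 Cdkn1c was higher in KO without overlap (5.54% of all genes) and Kcnq1 and Tssc4 were lower (12.6% of all genes). Cdkn1c averaged 119 ± 20.5 scaled reads in KO and 75.02 ± 26.0 in WT, and its lowest KO value, 107, was close to its highest WT value, 105. Its log2 difference was 0.70 (SE 0.72, limma adjusted p = 0.709). Kcnq1 averaged 25.6 ± 11.2 in KO and 210 ± 244 in WT (-2.44, SE 0.86, unadjusted p = 0.0129, limma adjusted p = 0.282). Without the libraries with most olfactory receptor reads its difference was -1.50 (adjusted p = 0.382). Tssc4 averaged 79.4 ± 8.11 in KO and 108 ± 21.9 in WT (-0.42, SE 0.40, limma adjusted p = 0.682). H19 averaged 27213 ± 4596 in KO and 24554 ± 11609 in WT, and Igf2 662 ± 62.9 in KO and 1071 ± 378 in WT, where the groups overlap (log2 differences of 0.24 and -0.63, SE 0.44 and 0.40, adjusted p = 0.841 and 0.546). The summed pluripotency level given above, 1494 to 2134 CPM in KO and 453 to 1040 CPM in WT at day 10, does not overlap in the same comparison, and its part was not tested. For the difference between the 2 differentiation changes 0 of 10 genes were called with limma, edgeR or DESeq2, where DESeq2 called 0.901% of its genes. Kcnq1 (-2.93) and Phlda2 were under an unadjusted p of 0.05 in limma, as 8.7% of all genes were.

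**Figure D3:**
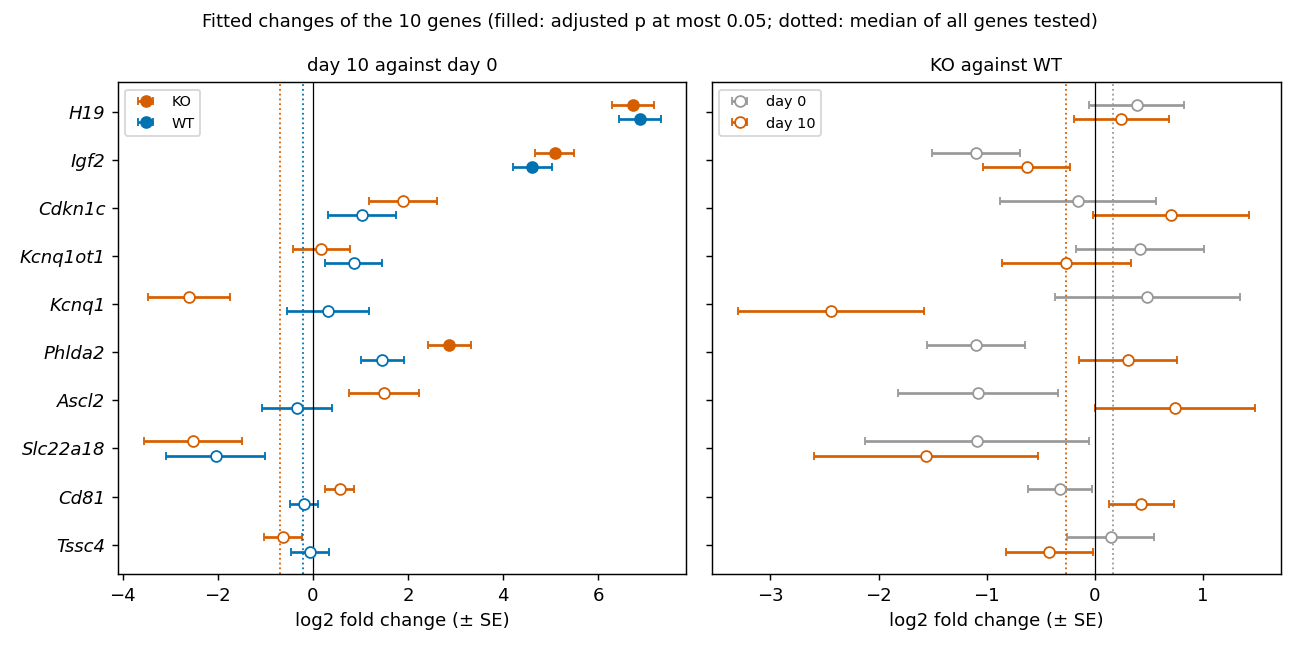
Log2 fold changes of the 10 genes with their SE, day 10 against day 0 on the left (KO above WT in each row) and KO against WT on the right (day 0 above day 10). Filled points passed an adjusted p of 0.05 and dotted lines mark the median of all genes tested. Filled points are H19 (6.73 in KO and 6.87 in WT), Igf2 (5.08 and 4.62) and Phlda2 in KO (2.87).

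Of 21 genes listed as neighbours of the cluster, 20 were tested. In KO 2 were called higher at day 10 and 1 lower, where 2.43% of all genes were called higher and 6.46% lower. In WT 1 was called higher, where 2.02% of all genes were. The median log2 change of the neighbours was -0.20 in KO and 0.59 in WT. Tnnt3, a troponin gene of fast muscle that lies near H19, had 87.3, 101.3 and 53.9 scaled reads in KO day 10 against 3.11, 5.54 and 5.77 in KO day 0 (3.80, SE 0.89, limma adjusted p = 0.0255). In WT it had 40.1, 35.0 and 51.7 at day 10 against 14.2, 0 and 2.85 at day 0 (3.46, SE 0.89, adjusted p = 0.0414). Dusp8, a phosphatase of stress kinases, rose in KO (2.34, SE 0.60, adjusted p = 0.0322), with 254, 118 and 146 scaled reads at day 10 against 15.6, 46.9 and 42.0 at day 0. Tnfrsf26, a gene of the TNF receptor family, was called lower in KO (limma adjusted p = 0.043). It had 0 reads in the 3 KO day 10 libraries, against 31.1, 7.16 and 7.83 scaled reads at day 0. In those day 10 libraries 1 read was worth 2.70 to 3.97 scaled reads, so these values are near the floor. Its highest values, 31.1 and 37.4 (WT replicate 3 of day 10), were in the 2 libraries with most olfactory receptor reads. The next 2 genes are named for their place and after their values were seen. Mrpl23, the gene of a mitochondrial ribosomal protein next to H19, averaged 37.5 ± 17.0 in KO day 10 against 31.5 ± 11.4 in KO day 0, and 79.0 ± 27.5 in WT day 10 against 48.6 ± 12.9 in WT day 0, and was not called. Nctc1, a noncoding gene between Mrpl23 and H19, had 0 to 20.1 scaled reads over the 12 libraries.

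Of 16 genes of the IGF pathway 5 were called higher at day 10 and 1 lower in KO (2.43% and 6.46% of all genes). In WT 4 were called higher and 0 lower (2.02% and 2.4% of all genes). The median log2 change of the 16 was 0.38 in KO and 1.08 in WT. Igf1r, the receptor through which Igf2 signals, averaged 3069 ± 277 scaled reads in KO day 10 against 1067 ± 559 in KO day 0 (1.64, SE 0.36, limma adjusted p = 0.0197). In WT it averaged 5983 ± 1159 at day 10 against 1053 ± 424 at day 0 (2.56, SE 0.36, adjusted p = 0.00111). The receptor adaptors Irs1 and Irs2 rose in both lines, by 3.09 and 2.63 in KO and by 3.68 and 3.64 in WT. Of the binding proteins that hold IGFs outside the cell, Igfbp4 (3.48) and Igfbp5 (4.23) rose and Igfbp7, a more distant relative, fell by 4.95 in KO. Igfbp3 rose by 1.54 in WT. Igfbp4 had 385, 778 and 952 scaled reads in KO day 10 against 80.95, 55.03 and 44.09 in KO day 0. Igf2r, the imprinted receptor that clears Igf2, is named for that role after its values were seen. It averaged 1431 ± 164 in KO day 10 against 1896 ± 319 in KO day 0, and 1066 ± 326 in WT day 10 against 1686 ± 211 in WT day 0, and was not called (-0.40 in KO and -0.70 in WT, SE 0.28 each).

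Of 13 regulators of imprints, 1 was called, as lower, in each line, where 6.46% of all genes in KO and 2.4% in WT were. Zfp57, which protects methylation at imprinting control regions, averaged 770 ± 161 scaled reads in KO day 10 against 2776 ± 884 in KO day 0, and fell by 1.81 on the log2 scale (SE 0.41, limma adjusted p = 0.0225). In WT it averaged 372 ± 159 at day 10 against 2774 ± 1547 at day 0, and fell by 2.85 (SE 0.41, adjusted p = 0.00134). The others, among them the CTCF gene and the DNA methyltransferase genes, were not called in either line with limma. Between KO and WT none of the neighbours, IGF pathway genes or regulators was called at either day. Under an unadjusted p of 0.05 at day 10 were 2 of 20 neighbours, 5 of 16 IGF pathway genes and 5 of 13 regulators, against 11.9% of all genes. At day 0 there were 0, 2 and 1 of them, against 3.82% of all genes. The 1 regulator at day 0 was Ehmt2, the gene deleted in KO (limma unadjusted p = 0.000659). Ehmt2 was also among the 5 regulators at day 10 (limma unadjusted p = 0.0206).

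The allele table counts reads of the mus and the cas allele of each gene, from the sequence differences of the hybrid line. All 10 genes were read almost wholly as mus. Summed over the 12 libraries they had 27961 mus reads and 59 cas reads, 99.8% mus, and 9 of the 9 genes with at least 50 allelic reads were at 95% or more. So were 8625 of 13770 genes on the autosomes other than 7, whose median mus share was 98.0%, so such shares are the usual state of this table. H19 had 8025 mus and 3 cas reads in KO day 10, 7504 and 0 in WT day 10, 442 and 0 in KO day 0, and 141 and 0 in WT day 0. Over all libraries 99.98% of H19 reads were mus (Wilson 95% interval 99.95 to 99.99%, which covers counting error only). Igf2, expressed from the other parental chromosome than H19 in the embryo, was also mus, with 60 mus and 0 cas reads in KO day 10 and 138 and 1 in WT day 10. Kcnq1ot1 had 5077 mus and 35 cas reads (99.3%, interval 99.0 to 99.5%) and Cd81 5158 and 4 (99.9%). Phlda2 had 34 allelic reads, Cdkn1c 50, Slc22a18 79 and Ascl2 108, and 10 reads or more were reached in 1, 1, 2 and 4 of the 12 libraries. The lowest mus shares were those of Cdkn1c (96.0%) and Slc22a18 (96.2%), with 11 mus and 2 cas reads for Cdkn1c and 22 and 3 for Slc22a18 in KO day 0. For each of these genes 11 of the 12 libraries held no cas read, so its cas reads came from 1 library.

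Most genes around the cluster were read the same way. Ctsd, a lysosomal protease gene, had 5558 mus and 10 cas reads, and the 15 neighbours with at least 50 allelic reads had a median mus share of 98.9%, 13 of them at 95% or more. Along chromosome 7 (mm9) both ends were read mostly as mus, with a median share of 99.3% over the genes of the first 10 Mb. Towards the cluster the shares changed at about 139 Mb. Acadsb, which starts at 138.6 Mb, had 53.3% mus reads, Bub3 at 138.7 Mb 88.1% and Cpxm2 at 139.2 Mb 99.0%. Of 130 genes beyond Acadsb with at least 50 allelic reads 117 were at 95% or more. Over the whole chromosome 919 of 1209 such genes had a share of 30 to 70%. The allele table therefore cannot tell mono-allelic from bi-allelic expression of the 10 genes, and neither maternal nor paternal expression can be read from it. Whether both mus and cas copies of this stretch are present was not measured.

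**Figure D4:**
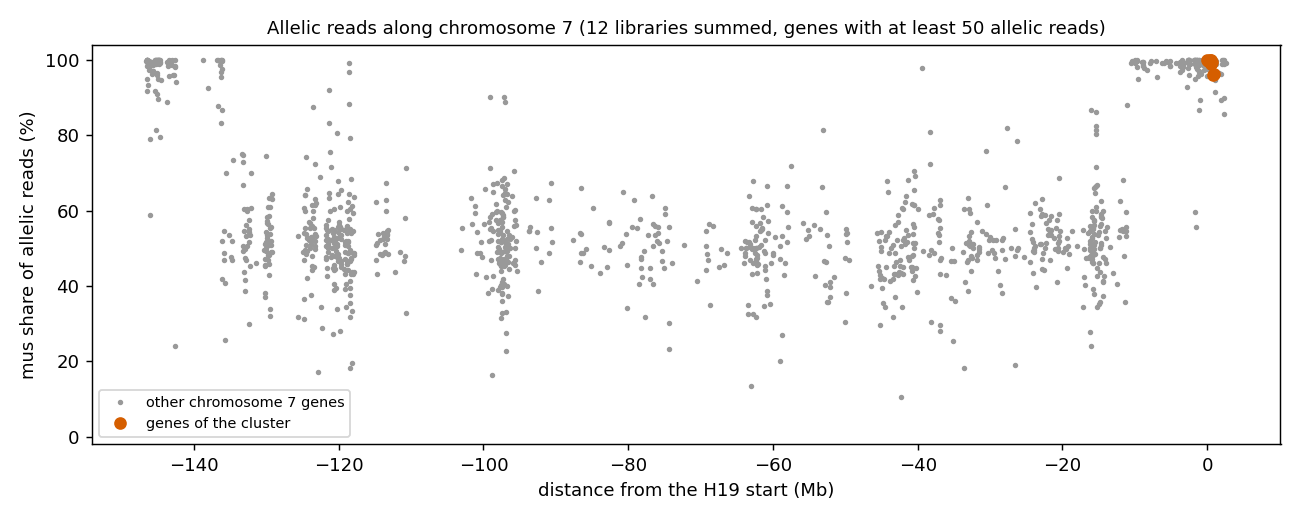
Share of allelic reads assigned to mus (%) for the genes of chromosome 7 with at least 50 allelic reads, summed over the 12 libraries, by distance from the H19 start (Mb). Orange points are genes of the cluster, all at 95% or more, and grey points other genes. Over the chromosome 919 of 1209 genes lie between 30 and 70%.

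The allele test (edgeR, a term for each library, genes with 10 or more reads of either allele in each library compared) covered 4 of the 10 genes in each KO against WT comparison. It called none of the 10 in any comparison. Their reads were nearly all mus (27961 mus and 59 cas), so the test had few cas reads and cannot decide whether allele use differed. Over all genes tested it called 0% for KO against WT at day 0, 0.0913% at day 10, 1.26% for day 10 against day 0 in KO and 0.0256% in WT. The lowest p was that of H19 for KO against WT at day 10 (unadjusted p = 0.0466, adjusted p = 1), from the 3 cas reads in KO.

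H3K9ac was compared over the starts of the 10 genes, 1 kb either side, with 1 sample a group and therefore no test. Peak heights and q-values are the authors'. At day 10 peaks lay at 5 of 10 starts in KO (52.1% of all 24016 starts) and at 6 of 10 in WT (50.8%), and at day 0 at 4 of 10 in KO (40.0%) and 5 of 10 in WT (49.7%). These shares are near those of all genes. Tssc4 had the highest peak of the cluster at day 10, with a fold enrichment of 6.02 in KO and 8.58 in WT, against 3.14 in KO and 4.18 in WT at day 0. Cd81 had 4.77 in KO and 5.82 in WT at day 10, against 3.67 in KO and 4.67 in WT at day 0. Kcnq1ot1, whose start is the imprinting control region of its side of the cluster, had 4.17 in KO and 5.37 in WT at day 10. At day 0 it had 3.52 in KO and 2.76 in WT, and the WT peak was weak (-log10 q of 0.50). The starts of Tssc4, Cd81 and Kcnq1ot1 are among the promoters printed above. Their peaks cover both a promoter with a TATA box (Cd81) and ones without (Tssc4 and Kcnq1ot1).

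At the H19 start a peak was listed at day 10 in both lines and in neither at day 0, with a fold of 3.04 in KO and 2.56 in WT. Both are weak (-log10 q of 0.89 and 0.31). At the Igf2 start a peak was listed in KO day 10 only, with a fold of 2.23 and a -log10 q of 0, and in none of the other 3 samples. Ascl2 had a peak in KO day 0 and WT day 10 (2.48 and 2.41), Cdkn1c in WT day 10 (2.53), and Phlda2 and Slc22a18 in WT day 0 (2.80 and 2.53). None of these 6 genes (H19, Igf2, Ascl2, Cdkn1c, Phlda2 and Slc22a18) had a peak with a -log10 q of 1 or more at its start, and the Kcnq1 start had no listed peak in any sample. With a -log10 q of at least 5 the starts with a peak were Tssc4 in KO day 10 and Tssc4, Cd81 and Kcnq1ot1 in WT day 10, where 10.6% of all starts in KO and 9.64% in WT had such a peak. At day 0 there was none, against 1.6% of all starts in KO and 0.275% in WT. Between the H19 and Phlda2 genes there were 28 peaks in KO and 20 in WT at day 10 and 12 in KO and 29 in WT at day 0. The lists as a whole held 51501 peaks in KO and 37310 in WT at day 10, and 37704 in KO and 63050 in WT at day 0. The longest 2 lists held the most peaks in the cluster.

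**Figure D5:**
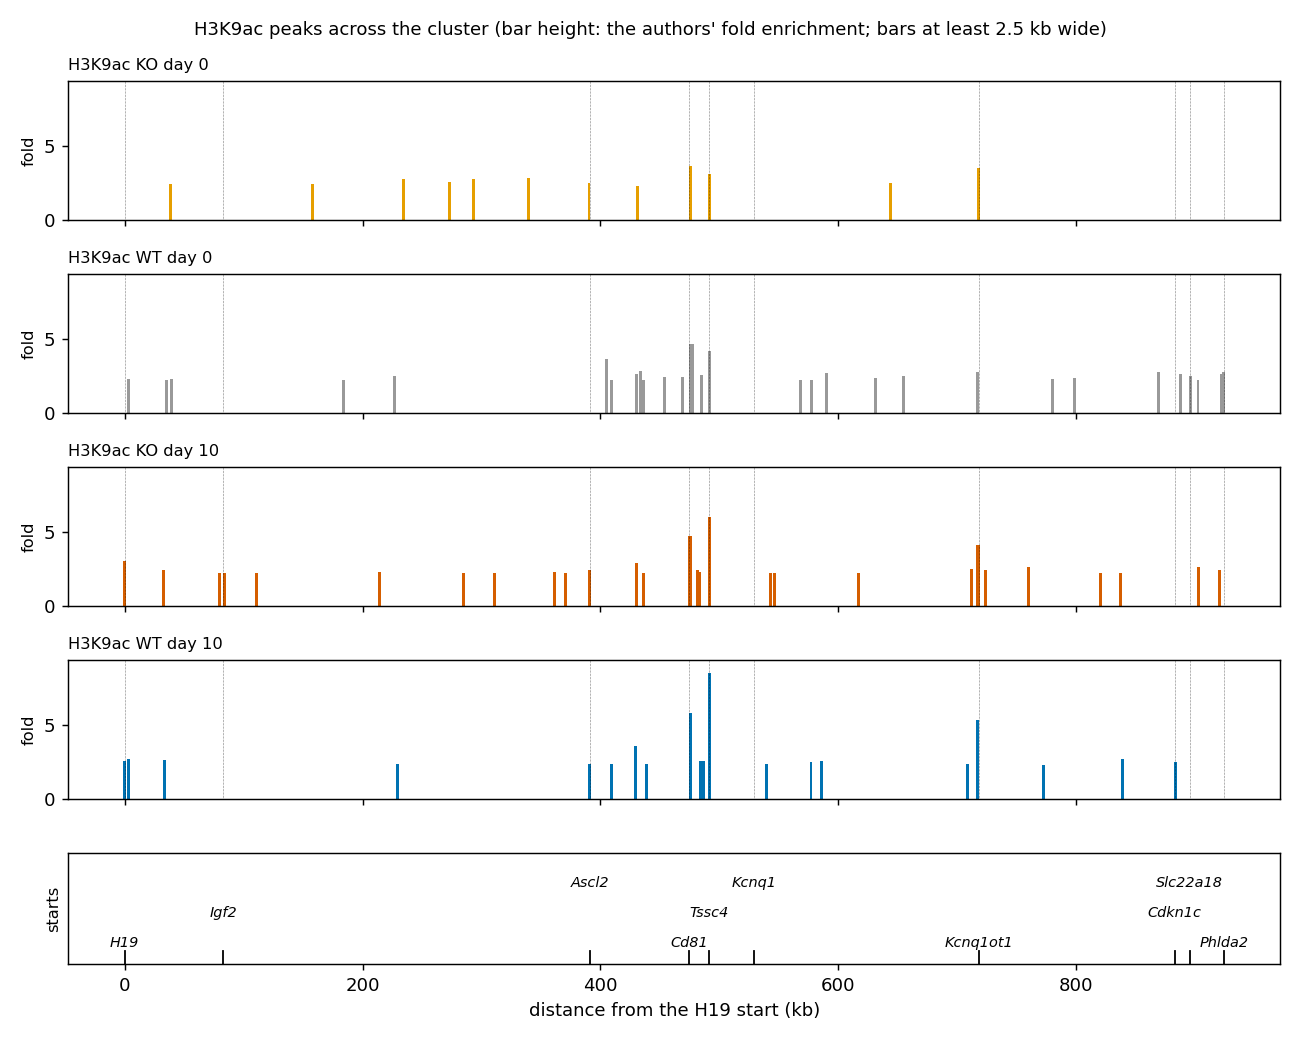
H3K9ac peaks over the cluster by distance from the H19 start (kb), with the authors' fold enrichment as bar height, for KO day 0, WT day 0, KO day 10 and WT day 10 from top to bottom (1 sample each). Ticks in the lowest panel are gene starts. The highest bars stand at Tssc4 (6.02 in KO day 10 and 8.58 in WT day 10), Cd81 and Kcnq1ot1.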

How the data were processed

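The 10 genes and all lists were chosen with earlier results of these data known. RNA was aligned with TopHat and counted with HOMER, and the ChIP steps used Novoalign for alignment and MACS2 for peaks, all on mm9 and with no versions given, per the submitters' processing notes. How alleles were assigned and whether strand was used are not given in the sources used here. The authors deposited a scaled signal per gene, reads times 1 factor per library, from which whole reads were recovered for 99.98 to 100.0% of values within 0.006. The authors also deposited log2 ratios and p-values of their own comparisons, which support no result here. The allele table holds whole-read counts per allele, per the file headers. Peak lists hold the authors' fold enrichment (a ratio to background) and the authors' −log10 p and q.

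Log2(signal + 1) of genes above 1 in at least 3 libraries was tested with limma 3.58.1 (trend, robust) over all 12 libraries in R 4.3.3, with Benjamini-Hochberg adjustment. Fold changes on this scale understate the change of low genes. Alternatives used edgeR 4.0.16 and DESeq2 1.42.0 on recovered reads, other scalings, pseudocounts and filters, a depth term, and fewer libraries. Alleles were tested with edgeR. Of 200 genes changed in simulated data for day 10 against day 0 in WT (21034 genes), limma called 19% of 100 changed 4-fold and 96% of 100 changed 16-fold at a dispersion of 0.281, and 100% of both at a dispersion of 0.0281 (20977 genes). Named were the 10 genes, the 5 genes most like H19 and Igf2, and the passing genes of the neighbour, IGF pathway and regulator lists. Some others were named for their place, role or level. Of the 12 ChIP samples, the 4 H3K9me2 samples and the inputs, 2 of them with conflicting day labels, were not used here.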

Additional observations from a re-analysis of the deposited data

How the results depend on the processing

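The 5 called changes kept their call and direction under all 18 alternatives run for each: H19 at 6.25 to 7.04 in KO and 6.52 to 7.22 in WT, Igf2 at 4.80 to 5.53 in KO and 4.36 to 5.01 in WT, and Phlda2 at 2.64 to 3.32 in KO (log2, highest adjusted p = 0.0320). No direction of a called change reversed, and 52 uncalled values changed sign. Of the 10 genes, 3 in KO and 2 in WT were called with each library left out in turn, and 3 in KO and 2 in WT with the replicate block. The replicate numbers did not pair the samples throughout. Correlations of deviations were 0.43, -0.11 and 0.58 for replicates 1, 2 and 3 of KO against WT at day 0. In the other comparisons they were -0.40 to 0.11. With the block 488 genes were called higher and 1124 lower in KO and 385 and 465 in WT. DESeq2 called 5 of the 10 in KO, adding Cdkn1c and Kcnq1, and the cause was not tested. Over all genes DESeq2 called 1403 higher and 1947 lower in KO and 1025 and 798 in WT. edgeR called 551 and 495 in KO and 507 and 539 in WT, and TMM scaling 734 and 853 in KO and 473 and 337 in WT. With a -log10 q of at least 5, starts with an H3K9ac peak numbered 1 in KO and 3 in WT at day 10 and 0 in both at day 0, since fewer peaks remain. With the H19 to Igf2 ratio, leaving out 1 library gave 1.40 to 2.24-fold, a check added after the data were seen. With a pseudocount of 5, 4 of the 5 genes most like H19 and 4 of 5 for Igf2 remained. Depth limits genes with few reads, such as Slc22a18 (0 to 23 reads in a shallow library) and Ascl2 (5 to 24).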

Other observations

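Apart from the starts of Kcnq1ot1, Cd81 and Tssc4, an H3K9ac peak was listed inside Tspan32, a tetraspanin gene between Ascl2 and Cd81, in all 4 samples. Its fold enrichment, the authors' value, was 2.94 in KO and 3.61 in WT at day 10, and 2.31 in KO and 2.66 in WT at day 0. The -log10 q was 0.78 in KO and 1.74 in WT at day 10, and 0.07 in KO and 0.38 in WT at day 0. So the peak was weak in all samples but WT day 10. There is 1 sample a group and no test was made.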
